A study of Homo sapiens with 4 samples.

Results

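EPHB2, EPHB3 and EPHB4 are the 3 EPHB receptor genes examined here for binding of the EMT-inducing zinc-finger repressor SNAIL1. The genes were taken by name. Their peaks were all those of the 4 deposited lists whose summit lay within 20 kb of a gene body in build hg19, which gave 3 of 2177 peaks. The gene bodies were chr1:23037331-23241823 for EPHB2, chr3:184279587-184300197 for EPHB3 and chr7:100400187-100425121 for EPHB4, with lengths of 204.5, 20.6 and 24.9 kb. The libraries were anti-HA chromatin immunoprecipitations (ChIP-seq) from LS174T cells, an established line of human colorectal adenocarcinoma, and every library came from the derivative pN1-LS174T Snail1-HA, in which doxycycline switches on murine SNAIL1 with a hemagglutinin (HA) tag. In the induced group (induced 1 and induced 2) the cells received doxycycline for 6 h, at 0.1 mg/ml as the labels write it, and in the uninduced group (uninduced 1 and uninduced 2) they received none. Whether the labels give the unit of this dose correctly could not be checked. The tagged protein is thus of another species and driven from a transgene, and binding by the cells' own SNAIL1 is not seen with this antibody. No source used here says whether the 2 libraries of a group came from separate cultures, and their spread may therefore be technical.

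EPHB receptors are receptor tyrosine kinases that bind ephrin-B ligands anchored in the membrane of neighbouring cells, and signalling runs into both cells. In the intestinal epithelium EPHB2 and EPHB3 are target genes of Wnt/beta-catenin/TCF signalling in crypt cells, where opposing gradients of receptor and ligand keep cell types in position. EPHB2, EPHB3 and EPHB4 have all been described as restraining the spread of colorectal tumours. SNAIL1 binds E-boxes, and its preferred box is CAGGTG, which reads CACCTG on the opposite strand. EPHB3 is known from work on colorectal cancer cells as a gene that SNAIL1 represses.

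The stretches directly before the 3 transcription starts are shown because they differ in the E-boxes they hold, while none of the peaks of this series was listed at a start of these genes. They are the 250 bases before the first base of each gene in RefSeq, build GRCh38.p14, at chr1:22710588-22710837 (plus strand), chr3:184561535-184561784 (plus strand) and chr7:100827524-100827773 (minus strand). Peak positions are in hg19 and were not converted, so no peak is placed on these sequences. Each is written 5′ to 3′ on the gene's strand, with every E-box of the form CANNTG in capitals.
EPHB2: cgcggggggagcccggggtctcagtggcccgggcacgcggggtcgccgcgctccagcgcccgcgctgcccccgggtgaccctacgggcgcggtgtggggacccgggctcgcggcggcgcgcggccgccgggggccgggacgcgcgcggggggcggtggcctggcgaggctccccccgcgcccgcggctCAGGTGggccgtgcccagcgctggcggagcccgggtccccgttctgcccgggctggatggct
EPHB3: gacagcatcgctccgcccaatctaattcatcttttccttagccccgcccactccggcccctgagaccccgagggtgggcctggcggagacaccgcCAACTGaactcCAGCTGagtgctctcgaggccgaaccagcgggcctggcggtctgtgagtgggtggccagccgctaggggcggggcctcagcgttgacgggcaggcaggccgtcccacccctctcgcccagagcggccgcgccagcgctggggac
EPHB4: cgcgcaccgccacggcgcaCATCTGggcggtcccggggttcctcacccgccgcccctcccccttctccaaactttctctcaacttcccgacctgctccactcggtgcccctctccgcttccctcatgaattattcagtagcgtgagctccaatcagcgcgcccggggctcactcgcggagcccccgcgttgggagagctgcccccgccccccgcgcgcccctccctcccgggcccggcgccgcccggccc

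EPHB2 was the only one of the 3 whose window held the preferred SNAIL1 box, as CAGGTG 62 to 57 bases before the start. The EPHB3 window held 2 other E-boxes, CAACTG at 155 to 150 and CAGCTG at 144 to 139 bases before the start. The EPHB4 window held CATCTG at 231 to 226 bases before the start. Over all 35116 RefSeq promoter windows of this length, of which some genes have several, 17.5% held CAGGTG on either strand and 61.8% held any CANNTG, of which CAGGTG is one form. CTTTGA, the core of the site that TCF factors bind, was in none of the 3 windows on either strand and in 11.2% of all windows. Of the 19 other EPH receptor and ephrin genes, 17 were in the promoter table, and 3 of these (EPHA1, EPHA6 and EFNB2) held CAGGTG or its complement, a share of 17.6%. EPHA1 and EPHA6 are receptors of the other EPH class, and EFNB2 encodes ephrin-B2, the main ligand of EPHB4. CANNTG was in 8 of the 17. These matches describe the letters in the window and are not binding sites.

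SNAIL1-HA peaks were found at EPHB3 in both induced libraries, at EPHB2 in induced 2 alone, and at EPHB4 in neither. Induced 1 thus had 1 peak at these genes and induced 2 had 2, a mean of 1.5 ± 0.71 (SD, n = 2), while both uninduced libraries had 0. The groups did not overlap, and the exact permutation test (two-sided) gave p = 0.33, the smallest value possible with this number of libraries. Because the genes were chosen with earlier results of these data known, no conclusion is drawn from this test. The uninduced lists held only 5 and 11 peaks in all, so that nearly any window of this size would hold none of them. A list holds no value for a site without a peak, so a missing peak sets no upper limit on binding there.

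To give the background for these counts, the chromosomes were divided into stretches as long as each gene's window, from the first base to the last summit. A summit of induced 1 was in 1.5% of stretches of the EPHB3 length (60.6 kb) and a summit of induced 2 in 2.4%. For the EPHB4 length (64.9 kb) the shares were 1.6% and 2.55%. The EPHB2 window is longer (244.5 kb), and 5.41% of such stretches held a summit of induced 1 and 8.26% a summit of induced 2. In the uninduced libraries the shares were far smaller, at 0.0405% and 0.0809% for the EPHB2 length, 0.01% and 0.0201% for the EPHB3 length, and 0.0108% and 0.0215% for the EPHB4 length. A window without a peak, as at EPHB4 and as at all 3 genes in uninduced cells, was therefore the common case. The stretches include regions poor in genes and are no test of these 3 genes.

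**Figure D1:**
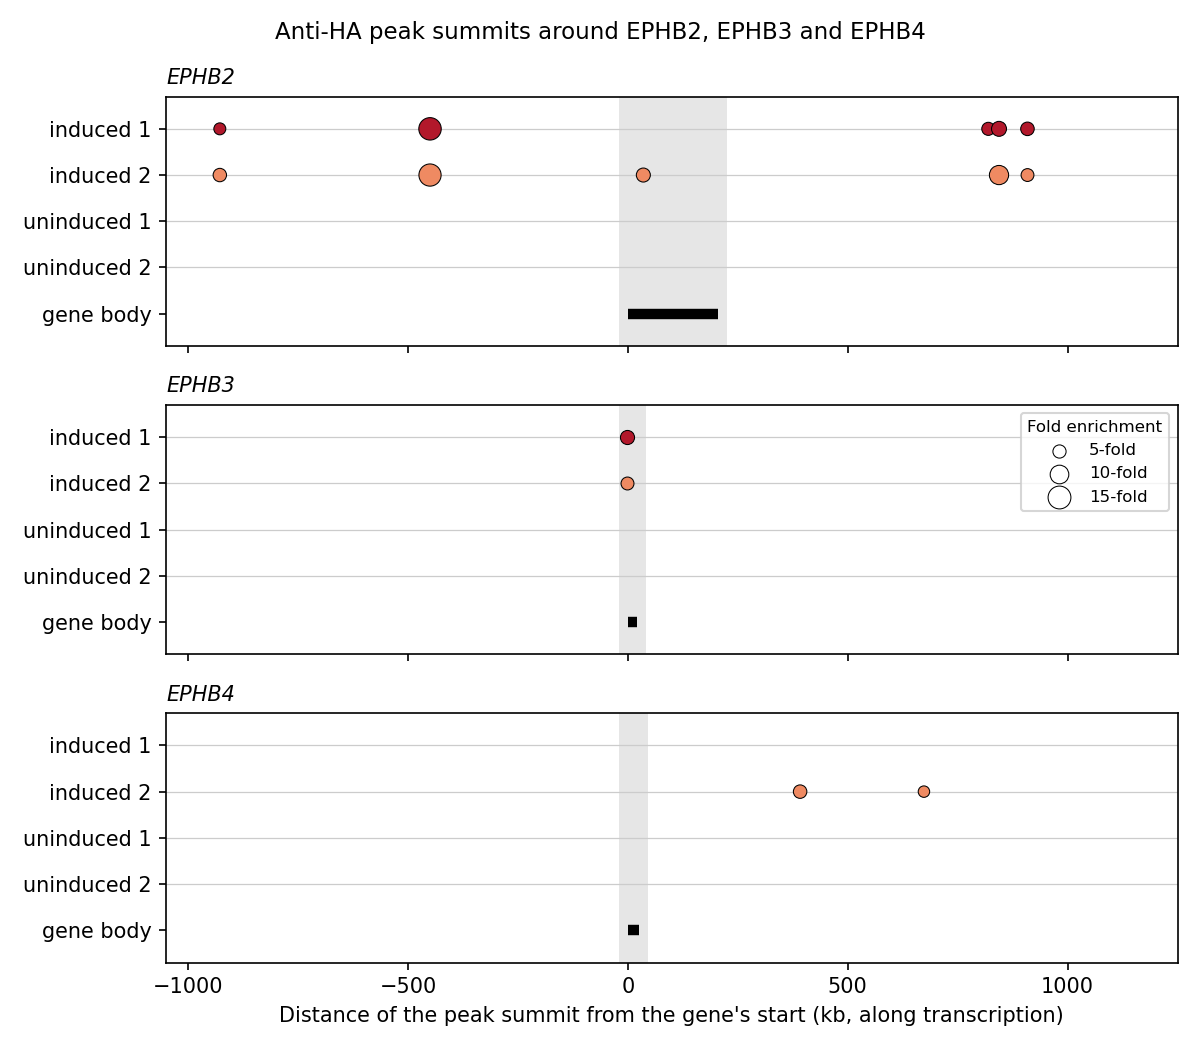
Anti-HA peak summits within 1 Mb of the bodies of EPHB2, EPHB3 and EPHB4 (panels), by distance from the gene's start along transcription in kb, with 1 row for each library, point area by fold enrichment, black bars for gene bodies and grey for the windows of 20 kb around them. Points fall in the grey windows in both induced rows at EPHB3, in the induced 2 row alone at EPHB2, and in no row at EPHB4 or for uninduced cells.

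The EPHB3 site lay just upstream of the gene and was the only peak within 1 Mb of it. In induced 1 the peak covered chr3:184277032-184277528 (497 bp), with its summit at 184277361, 2226 bp before the gene's start. In induced 2 it covered chr3:184277103-184277530 (428 bp), with its summit at 184277314, 2273 bp before the start. The peaks overlapped by 426 bp and their summits lay 47 bp apart, against a median of 23 bp over the 661 sites shared by the induced libraries. A gap at least this large was found at 167 of those sites. The nearest protein-coding genes on either side of EPHB3 in RefSeq are CHRD, which encodes the BMP antagonist chordin, and MAGEF1. Whether the site lies in a transcribed non-coding gene in hg19 was not examined.

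ChIP reads at the EPHB3 site were many, and its fold enrichment was moderate. The summit was covered by 73 reads (95% Poisson interval 57.2 to 91.8) in induced 1 and 56 reads (42.3 to 72.7) in induced 2. These are extended reads recovered from the authors' fold and p, and the intervals cover counting error only. By reads the peak ranked 159 of 823 in induced 1 and 197 of 1338 in induced 2, the upper part of each list. The authors' fold enrichment, the summit reads over the local control background, was 5.75 in induced 1 and 4.81 in induced 2, a mean of 5.28 ± 0.66 (SD, n = 2). By fold it ranked only 339 of 823 and 694 of 1338. The control background at the site was high. On the scale of the ChIP reads it was 11.55 in induced 1, against a list median of 8.40, and 10.85 in induced 2, against 6.33. Only 85 peaks of induced 1 and 47 of induced 2 had a higher background. The authors' −log10 q of the peak was 19.7 and 17.6.

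The EPHB3 peaks were also wide for these lists, whose median widths were 338 and 336.5 bp. In induced 1, 89 peaks were wider, and in induced 2, 284 were.

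**Figure D2:**
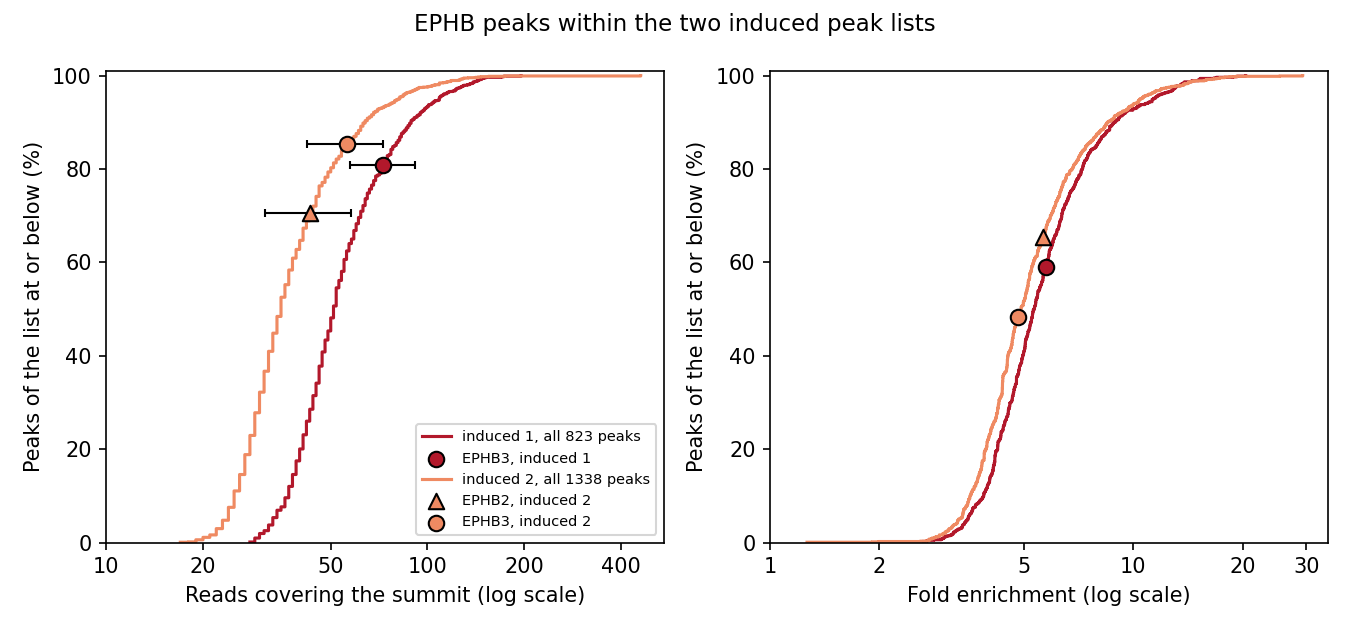
Cumulative share of peaks (%) by summit reads (left, log scale) and by fold enrichment (right, log scale) in the induced lists, with the EPHB3 peaks as circles, the EPHB2 peak as a triangle, and 95% Poisson intervals on reads. EPHB3 sits at 80.8% (induced 1) and 85.3% (induced 2) of the lists by reads but at 58.9% and 48.2% by fold. EPHB2, listed in induced 2 only, sits at 70.6% by reads and 65.5% by fold.

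Reads at EPHB3 did not differ detectably between the induced libraries. The ratio of 73 to 56 reads was 1.30, and the summed reads of all 661 shared sites gave an overall ratio of 1.23. After the overall ratio was taken out, EPHB3 was 0.09 higher in induced 1 on the log2 scale (95% exact interval −0.44 to 0.61). The direction depended on the scaling: with the ratio of the genome-wide backgrounds, 1.45, the value was −0.15. In the exact binomial test its unadjusted p was 0.79, and its p with Benjamini-Hochberg adjustment over the 661 sites was 1. None of the 661 sites passed that test (0% called), and 19 had an unadjusted p under 0.05. The interval leaves room for a difference of about the size of its bounds in either direction.

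**Figure D3:**
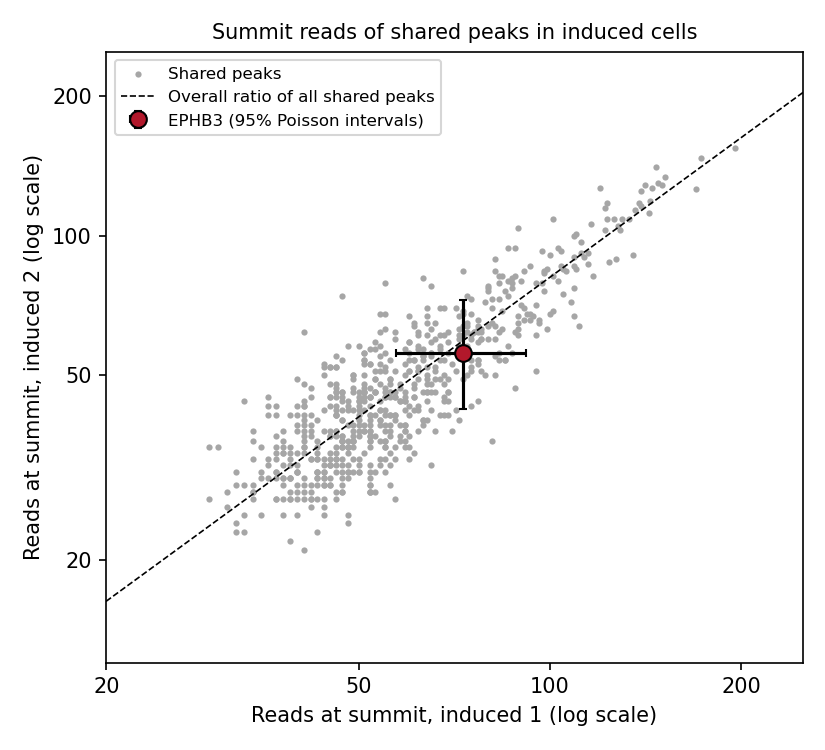
Reads at the summits of the 661 shared sites in induced 1 (x axis) and induced 2 (y axis), both on log scales, with EPHB3 in red with its 95% Poisson intervals and the overall ratio as a dashed line. The EPHB3 point, at 73 and 56 reads, lies on the line within its intervals.

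Peaks as strong as EPHB3 in reads nearly always recurred. Of the peaks of induced 1 with reads within 10% of it, 87 of 89 (97.8%, exact interval 92.1 to 99.7) met one in induced 2, and in the other direction 102 of 107 did (95.3%, 89.4 to 98.5). Over the whole lists the shares were 80.3% and 49.3%. The recurrence of EPHB3 is thus the usual outcome for its read level. Among peaks with a fold within 10% of that at EPHB3, the shares were lower, at 163 of 193 in induced 1 (84.5%, 78.6 to 89.3) and 125 of 375 in induced 2 (33.3%, 28.6 to 38.4). The EPHB3 peak itself is counted in each of these sets, among those that recurred.

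The EPHB3 peak stood far from other listed peaks of chromosome 3. In induced 1 the nearest other summits were 7.15 Mb and 9.57 Mb away on either side, and in induced 2 they were 1.44 Mb and 9.57 Mb away. The induced 2 summit at 1.44 Mb lay at about the position of a peak of uninduced 2, at chr3:182833997-182834246. It therefore cannot be counted as a site seen only with doxycycline. Distances over 1 Mb to any other summit were found for 258 peaks of induced 1 (31.3%) and 298 of induced 2 (22.3%). Chromosome 3 carried 22 peaks in induced 1 and 51 in induced 2, among which EPHB3 was 8th and 30th by fold.

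Uninduced cells had no peak near EPHB3. Uninduced 1 listed none on chromosome 3, and the only one of uninduced 2 there lay 1.45 Mb upstream of the gene, at chr3:182833997-182834246, with 35 reads. Induced 2 also had a peak at about that position. The fewest reads at any listed summit of the uninduced libraries were 37 and 35, below the 73 and 56 reads at EPHB3 in induced cells. The depth of the uninduced libraries could not be set beside that of the induced ones, so how many reads an EPHB3 peak would have had there is unknown.

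The EPHB2 peak was inside the gene body and in induced 2 only. It covered chr1:23072463-23072779 (317 bp), with its summit at 23072627, which is 35.3 kb after the start of the gene of 204.5 kb. Whether this position is exonic or intronic in hg19 was not examined. The summit was covered by 43 reads (31.1 to 57.9) over a control background of 6.78, close to the list median of 6.33. The fold was 5.65, higher than at EPHB3 in the same library although EPHB3 had more reads, and the −log10 q was 16.1. The peak ranked 394 of 1338 by reads, 462 by fold, and 52nd by fold among the 144 peaks of chromosome 1.

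Most peaks of induced 2 as strong as the one at EPHB2 were also found in induced 1, but a part of them was not. Of the 217 peaks of induced 2 with reads within 10% of it, 148 (68.2%, 61.6 to 74.3) overlapped a peak of induced 1, against 49.3% of the whole list. Of the 271 with a fold within 10%, 139 (51.3%, 45.2 to 57.4) did, a share close to that of the list. The EPHB2 peak itself is counted in both sets, among those without a partner. Scaled by the overall ratio, its 43 reads would be 52.8 in induced 1, where the lowest called summit had 28 reads and the median was 51. That ratio comes only from sites called in both lists and need not hold for this site. Binding at EPHB2 in induced 1 was therefore neither detected nor shown to be absent.

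Outside its body, EPHB2 had no induced peak nearer than 449.8 kb. There, upstream of the gene, both libraries shared a strong site with summits at 22587574 and 22587572 on chromosome 1. Its folds of 14.5 and 14.2 and its 129 and 103 reads exceeded those at EPHB2 and EPHB3. On the downstream side the nearest summits were 615.3 kb away in induced 1 and 639.6 kb in induced 2. The nearest uninduced summits were 213.1 Mb away in uninduced 1 (8.77-fold, 54 reads) and 98.2 Mb in uninduced 2. The latter had 499 reads but only 1.32-fold enrichment, so its control background was also very high. In RefSeq the neighbouring protein-coding genes of EPHB2 are C1QB, which encodes a chain of complement C1q, and LACTBL1.

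EPHB4 had no peak in any library, and the nearest ones were far away. In induced 1 the closest summit lay 1.19 Mb beyond the gene's end, at 99214538 on chromosome 7 (5.76-fold, 55 reads), and the closest on the side of the start lay 1.71 Mb upstream. In induced 2 the closest summit was nearer, 366.9 kb beyond the gene's end, at chr7:100033133-100033461. That peak had 5.23-fold enrichment and 34 reads and was not in induced 1. The upstream site, with summits at 102133899 and 102133923, was shared, with folds of 5.03 and 4.55. Chromosome 7 held 38 and 71 induced peaks in all. Uninduced 1 listed none on this chromosome, and in uninduced 2 the nearest was 38.4 Mb away. That summit had 500 reads but only 1.32-fold enrichment, over a very high control background.

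Among the 3 receptors, the nearest summit was thus 2226 and 2273 bp from EPHB3 in both induced libraries. For EPHB2 it lay inside the gene in induced 2 and 449.8 kb away in induced 1, and for EPHB4 the distances were 366.9 kb and 1.19 Mb. EPHB2 and EPHB4 therefore differed between the induced libraries in their nearest peak, while EPHB3 did not. At EPHB2 and EPHB4 the nearer summit was an unshared peak of induced 2. Such peaks were common, since only 49.3% of the 1338 peaks of induced 2 overlapped a peak of induced 1.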

How the data were processed

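Each library has its own deposited peak list, and the authors thus called peaks per sample. Tools named in the submitters' processing notes are MACS2 2.1.1.20160309, BWA 0.7.15 and Trimmomatic 0.36, with build hg19. No source used here gives the peak threshold, the treatment of duplicates or the control paired with each library. In the deposited lists each peak has a fold enrichment, a ratio of summit reads to local control background, a −log10 p, a −log10 q and a score that is 10 times the −log10 q, rounded down. Total read numbers are unknown. Lists held 823 (induced 1), 1338 (induced 2), 5 and 11 (uninduced) peaks.

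Groups and doses were read from the labels. The genes, their coordinates and the lists of family genes and motifs were chosen with earlier results of these data known. Named peaks were every peak within 20 kb of the 3 genes and the nearest on each side. Summit reads and backgrounds were solved from fold and −log10 p by MACS2's formulas, with a pseudocount of 1 in the fold. This gave whole reads within 0.0005 of the listed −log10 p for all peaks of the 4 lists, after a scale of 1.40 was fitted for induced 1, whose reads are given before scaling. The recovery and the binomial test were tested on simulated data. Peaks overlapping by at least 1 bp were called shared. Intervals are exact (Poisson or Clopper-Pearson) at 95%. Alternatives were the window, the fold and q thresholds, the overlap rule, the scaling and leaving out each library. Python 3.11.15 and scipy 1.17.1 were used. The binding at other EPH and ephrin genes and the sequences under the peaks were not analysed here.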

Additional observations from a re-analysis of the deposited data

How the results depend on the processing

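The difference of 1.5 peaks at the 3 genes between induced and uninduced libraries was the same with windows of 5, 50 and 100 kb, with a −log10 q of at least 5 and with any part of a peak counted. A fold of at least 5 gave 1, since the EPHB3 peak of induced 2 has a fold of 4.81, and leaving out 1 library gave 1 to 2. With a replicate block the difference was 1.5 (exact sign-flip test, p = 0.5, which no test of 2 pairs can go below), but no label says that the numbers pair the libraries and the lists do not allow a check. The EPHB3 site was shared under an overlap of at least 50% and with summits at most 100 bp apart. With a fold of at least 5 required in both lists the number of shared sites at these genes was 0, and the mean distance of EPHB3 to its nearest induced peak rose from 2.25 to 723.9 kb, both because the peak of induced 2 drops out. The induced 2 peak that then takes its place lies at about the position of the only chromosome 3 peak of uninduced 2. The difference in EPHB3 reads between the induced libraries was 0.09 on the log2 scale with the overall ratio and 0.07 with the median ratio, and it turned to −0.15 with the ratio of the genome-wide backgrounds (exact binomial test, adjusted p = 0.93). Distances of EPHB2 and EPHB4 moved by less than the spread between the induced libraries under the 2 alternatives run for them, measuring to the transcription start and a fold of at least 5. The planned count over other EPH and ephrin genes and the motif search under the peaks were not run, since no hg19 annotation or sequence was used.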
